A study of Mus musculus with 5 samples.

Results

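Claudins are the membrane-spanning proteins from which the strands of tight junctions are built, and 10 claudin genes were examined in the uterus of pseudopregnant mice. The 10 genes (Cldn1, Cldn2, Cldn3, Cldn4, Cldn5, Cldn7, Cldn8, Cldn10, Cldn11 and Cldn23) were listed by name with earlier results of these libraries known, so their differences between the groups are a description and not a test. They are 10 of the 22 claudin genes and of the 28666 genes in the count table, and each of the 10 had enough counts to be fitted. Females were ICR mice aged 6 to 8 weeks, caged in estrus with vasectomized C57BL/6 males, whose ejaculate carries seminal plasma (SP) but no sperm. Males of the young-SP group were 12 to 14 weeks old and males of the aged-SP group 12 to 18 months. Whole uteri were collected before any embryo transfer, at 3.0 days post coitum (dpc) in the study's methods and 3.5 days after caging in the series text. The aged-SP group had 2 libraries, numbered 1 and 4, while the young-SP group had 3, numbered 1, 2 and 4. The comparison asks how the age of the male is reflected in the uterus of his mate.

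A tight junction closes the space between neighbouring epithelial or endothelial cells near the apical surface, and the claudins that a cell makes decide how tight and how ion-selective that seal is. Some claudins mainly seal, such as claudin-1, claudin-3, claudin-5 and claudin-11, while claudin-2, claudin-10 and claudin-15 form pores for ions, and claudin-2 also for water. In the mouse uterus the luminal and glandular epithelium carry such junctions, and the uterine lumen loses fluid and closes around the blastocyst before implantation.

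The sequences just before the start sites are shown for the 4 genes on which the description turns most. These are Cldn3, the most abundant, its neighbour Cldn4, and the pore genes Cldn2 and Cldn10. Each line gives the 250 bases before a RefSeq start site on GRCm38.p6, 5′ to 3′ on the strand of the gene, and Cldn10 has 2 start sites. Capitals mark matches, on either strand, to 5 short motifs chosen after the sequences had been seen. They are the TATA box TATAAA, the GC box GGGCGG, the CCAAT box, the E-box CAGGTG to which Snail and Zeb factors are known to bind, and TGTTCT, a common steroid receptor half-site.
Cldn2, chrX:139800558-139800807, plus strand: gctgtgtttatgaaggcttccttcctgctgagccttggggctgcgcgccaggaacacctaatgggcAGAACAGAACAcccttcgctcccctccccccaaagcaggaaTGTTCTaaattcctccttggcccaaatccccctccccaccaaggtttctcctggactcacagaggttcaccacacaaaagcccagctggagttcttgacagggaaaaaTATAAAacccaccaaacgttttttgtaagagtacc
Cldn10 upstream start, chr14:118787621-118787870, plus strand: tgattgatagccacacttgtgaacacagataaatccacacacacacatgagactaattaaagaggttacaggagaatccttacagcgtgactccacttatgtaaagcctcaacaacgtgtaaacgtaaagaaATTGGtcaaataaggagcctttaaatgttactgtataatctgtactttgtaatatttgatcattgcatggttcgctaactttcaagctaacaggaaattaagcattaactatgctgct
Cldn10 downstream start, chr14:118854700-118854949, plus strand: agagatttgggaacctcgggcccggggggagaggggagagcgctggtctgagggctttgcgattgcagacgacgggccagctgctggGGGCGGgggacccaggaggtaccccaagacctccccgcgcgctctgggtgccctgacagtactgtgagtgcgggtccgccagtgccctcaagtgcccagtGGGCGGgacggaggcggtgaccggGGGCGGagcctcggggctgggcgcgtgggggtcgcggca
Cldn3, chr5:134985964-134986213, plus strand: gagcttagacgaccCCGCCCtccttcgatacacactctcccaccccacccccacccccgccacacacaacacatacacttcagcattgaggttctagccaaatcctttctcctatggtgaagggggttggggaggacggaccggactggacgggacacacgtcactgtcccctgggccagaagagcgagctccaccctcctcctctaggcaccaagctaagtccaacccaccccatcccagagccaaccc
Cldn4, chr5:134946935-134947184, minus strand: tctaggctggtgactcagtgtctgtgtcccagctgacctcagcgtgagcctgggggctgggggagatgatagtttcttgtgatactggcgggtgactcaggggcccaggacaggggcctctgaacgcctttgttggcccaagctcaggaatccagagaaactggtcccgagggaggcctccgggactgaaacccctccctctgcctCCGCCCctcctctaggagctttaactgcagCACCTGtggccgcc
The Cldn2 sequence holds TATAAA 35 bases before the start. It also holds 3 copies of TGTTCT, 2 of them on the opposite strand and overlapping by their last and first base. The 2 starts of Cldn10 differ in composition, with 36.0% G and C before the upstream start and 72.4% before the downstream start, which has 3 copies of GGGCGG. For comparison, Cldn3 has 60.8% and Cldn4 62.0%, and the median of all promoters is 52.4%. Cldn3 has a single GC box far from its start, and Cldn4 has a GC box and an E-box close to its start. Over the 32851 mouse promoters of the same length, TATAAA occurs in 12.4%, GGGCGG in 32.7%, CCAAT in 33.8%, CAGGTG in 17.2% and TGTTCT in 16.1%. A match is a description of the letters and not of a bound factor.

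Total counts lay between 15071914 and 16728601 per library. Young-SP replicate 1 stood apart from the other young-SP libraries. Over all 17013 tested genes it differed from aged-SP replicate 4 by a root mean square of 0.69 in log2 CPM (CPM is the count relative to the normalized library size), from young-SP replicate 4 by 0.70 and from young-SP replicate 2 by 0.76, while young-SP replicates 2 and 4 differed by 0.49. A list of 8 genes of the estrogen response was led by lactoferrin (Ltf) and held the estrogen receptor gene Esr1 as well. It summed to 2833 FPKM (a level per length of transcript) in young-SP replicate 1. The same list summed to 2568 and 2688 in the aged-SP libraries, and to 169 and 428 in young-SP replicates 2 and 4. Over the 10 claudins alone, young-SP replicate 1 was nearer to young-SP replicates 4 (0.75) and 2 (0.84) than to aged-SP replicates 4 (1.03) and 1 (1.66). Nothing is read from this order, since the 10 genes were listed with results known and it rests largely on Cldn2. Relative to its mean, the log2 CPM of Cldn2 was 1.45 in aged-SP replicate 4. It was -1.05 in young-SP replicate 1 and -1.70 in young-SP replicate 4. The part of young-SP replicate 1 in the differences below was not tested beyond leaving that library out. In RNA of a whole organ, fewer cells of a type and less RNA per cell cannot be told apart.

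Cldn3 was the most abundant claudin of the uterus in each of the 5 libraries. Its level averaged 121 ± 43.7 FPKM (SD, n = 5), and Cldn7 followed at 40.3 ± 14.8, Cldn5 at 31.7 ± 11.2 and Cldn10 at 28.5 ± 18.3 FPKM. Cldn4 stood at 17.4 ± 1.83, Cldn1 at 13.2 ± 6.999 and Cldn23 at 13.1 ± 6.43 FPKM. The lowest levels were those of Cldn8 at 7.86 ± 2.45, Cldn2 at 3.88 ± 5.68 and Cldn11 at 1.03 ± 0.470 FPKM. Below Cldn3, neighbours in this order changed places from library to library, since each gene exceeded the next in 3 of 5 libraries, except that Cldn8 exceeded Cldn2 in 4 of 5. Cldn10 ranked 3 and 4 among the 10 in the aged-SP libraries and 3 in young-SP replicate 1, but 6 in the other young-SP libraries. Cldn2 was the lowest of the 10 in young-SP replicates 2 and 4 and ranked 6 in aged-SP replicate 1.

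By edgeR's quasi-likelihood test, 0 of the 10 claudins reached both thresholds (adjusted p below 0.05 and a difference of more than 1 on the log2 scale). Of all tested genes 0.147% did, 0.0823% higher and 0.0647% lower. The adjusted p of the 10 lay between 0.0552 for Cldn3 and 0.766 for Cldn1 in edgeR. At an unadjusted p under 0.05 there were 6 of the 10, 4 higher and 2 lower, against 19.0% of all tested genes (9.62% higher and 9.36% lower). The levels of the groups did not overlap in the same 6 genes, against 38.8% of all tested genes. Cldn2, Cldn8, Cldn10 and Cldn11 were higher in both aged-SP libraries, as 19.5% of all tested genes were, and Cldn3 and Cldn23 lower, as 19.3% were. DESeq2's Wald test, the tool named in the study's methods, called Cldn2, Cldn3, Cldn10 and Cldn23, where it called 3.60% of all genes with an adjusted p (1.69% higher and 1.92% lower). Without young-SP replicate 1, edgeR called the same 4, against 3.45% of all genes. Since the genes were picked for such differences, nothing is read from these counts. The median log2 fold change of the 10 was 0.47, beside 0.01 for all tested genes.

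**Figure D1:**
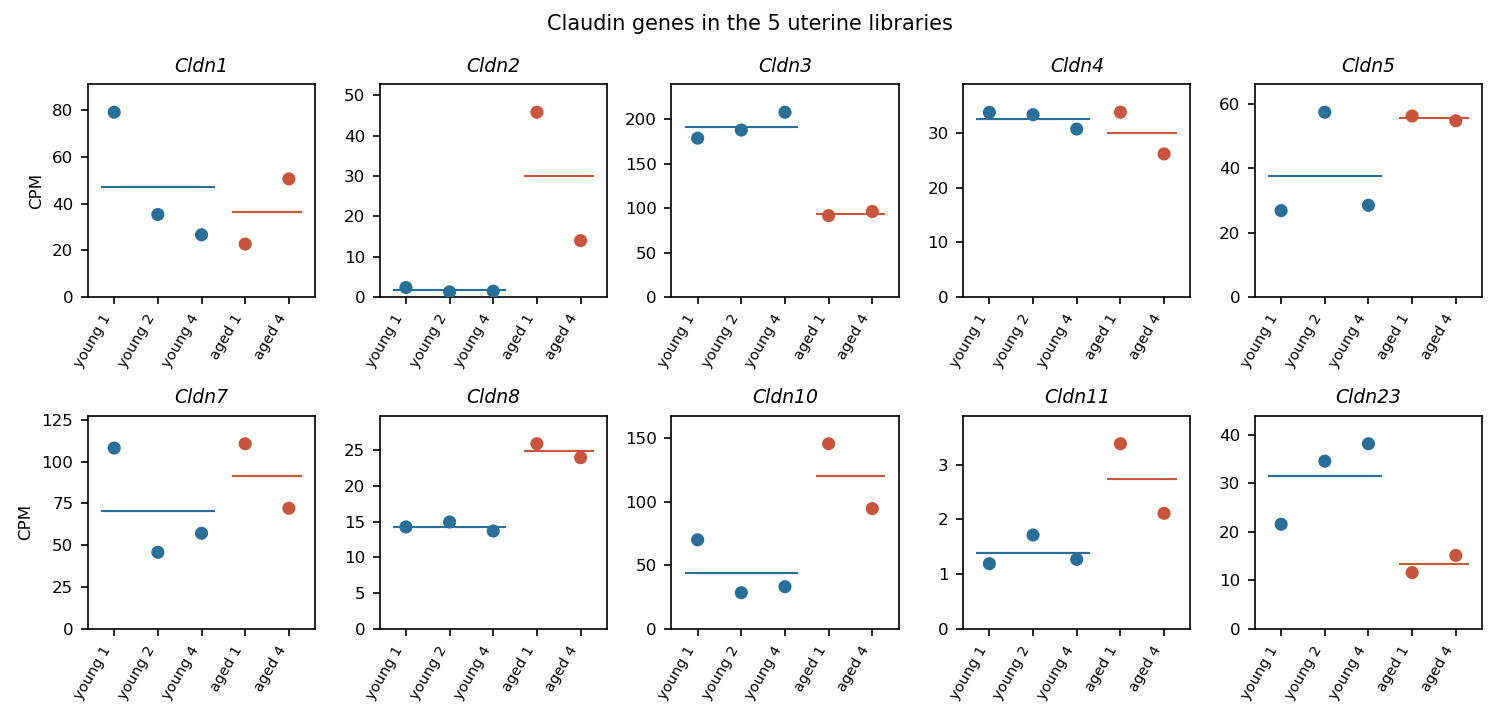
Level of each of the 10 claudin genes in CPM (linear axis from 0) in the 3 young-SP libraries (blue) and the 2 aged-SP libraries (red), with horizontal lines at the group means. The groups separate for Cldn2, Cldn3, Cldn8, Cldn10, Cldn11 and Cldn23 and overlap for Cldn1, Cldn4, Cldn5 and Cldn7.

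Among the sealing claudins, Cldn3 (a receptor of the enterotoxin of Clostridium perfringens, like Cldn4) was at a lower level in the aged-SP group. It had 91.5 and 96.1 CPM in aged-SP replicates 1 and 4, and 179, 188 and 208 CPM in young-SP replicates 1, 2 and 4. Both aged-SP libraries lay below all young-SP libraries, young-SP replicate 1 was the nearest to them, and the spread within each group was small. The means were 93.8 ± 3.26 CPM (SD, n = 2) and 191 ± 14.9 CPM (SD, n = 3), so that the young-SP group was 2.04-fold higher. The log2 fold change (aged-SP over young-SP) was -1.03 with a standard error of 0.10, and it lay between -1.09 and -0.97 with each library left out in turn. Cldn3 (chromosome 5, 134986214 to 134987472, plus strand) has a single exon, whose end overlaps the antisense RNA Wbscr25 on the opposite strand. The library kit does not mark strand, and Wbscr25 was listed with 1 to 5 counts per library, beside 1503 to 3173 for Cldn3.

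Cldn4, 39.3 kb from Cldn3 on the opposite strand (chromosome 5, 134945119 to 134946934), was near level across the libraries. It had 33.9 and 26.2 CPM in the aged-SP libraries and 33.8, 33.4 and 30.8 CPM in the young-SP libraries. The groups overlapped, and aged-SP replicate 4 was the lowest of the 5. The log2 fold change was -0.12 with a standard error of 0.14, and it was 0.05 without aged-SP replicate 4. Of the 10 claudins Cldn4 had the narrowest range, with the highest library at 1.29 times the lowest. The ratio of Cldn3 to Cldn4 in FPKM was 3.90 and 5.29 in the aged-SP libraries and 7.61, 8.10 and 9.73 in the young-SP libraries, so that these neighbouring genes did not keep a fixed ratio.

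Cldn23, a claudin of epithelia that is less studied than the others, had 11.5 and 15.1 CPM in the aged-SP libraries. In the young-SP libraries it had 21.5, 34.5 and 38.1 CPM. Both aged-SP libraries lay below the young-SP libraries, and young-SP replicate 1 lay between them and the other 2. The means were 13.3 ± 2.51 CPM (SD, n = 2) and 31.4 ± 8.73 CPM (SD, n = 3), and the log2 fold change was -1.24 with a standard error of 0.29. Cldn23 lies on chromosome 8 (35824712 to 35826559, minus strand). Over the 5 libraries, the pattern of Cldn23 was the nearest to that of Cldn3 among the other 9 claudins, with a root mean square difference of 0.26 between their centred log2 CPM, and the ratio of Cldn3 to Cldn23 overlapped between the groups (9.35 to 11.6 against 7.98 to 12.2 in young-SP).

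Cldn1 and Cldn7 varied more within the groups than between them. Cldn1, which is needed for the barrier of the skin, had 22.7 and 50.7 CPM in the aged-SP libraries and 79.2, 35.4 and 26.7 CPM in the young-SP libraries. Young-SP replicate 1 was the highest and aged-SP replicate 1 the lowest, and the log2 fold change of -0.36 (standard error 0.56) turned to 0.23 without young-SP replicate 1 and to 0.10 without aged-SP replicate 1. Cldn7, an epithelial claudin that is also found along the lateral membrane with the adhesion protein Epcam, had 111 and 72.1 CPM in the aged-SP libraries and 108, 45.8 and 57.1 CPM in the young-SP libraries. Aged-SP replicate 1 and young-SP replicate 1 were the highest, and the groups overlapped (log2 fold change 0.38, standard error 0.40). Without young-SP replicate 1 the log2 fold change of Cldn7 was 0.82, and without aged-SP replicate 1 it was 0.03. The ratio of Cldn7 to Epcam was 0.443 and 0.321 in the aged-SP libraries, 0.404 in young-SP replicate 1, and 0.625 and 0.687 in young-SP replicates 2 and 4.

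The pore claudin Cldn2, known from leaky epithelia such as the proximal tubule of the kidney, had the widest range of the 10. It had 45.8 CPM in aged-SP replicate 1 and 14.01 CPM in aged-SP replicate 4. In the young-SP libraries it had 2.38, 1.30 and 1.47 CPM, from 38, 22 and 22 counts. The lower aged-SP library was 5.89 times the highest young-SP library, although aged-SP replicate 1 was itself well above aged-SP replicate 4. The means were 29.9 ± 22.5 CPM (SD, n = 2) and 1.72 ± 0.579 CPM (SD, n = 3), which is 17.4-fold, and the log2 fold change was 4.12 with a standard error of 0.57. Without aged-SP replicate 1 the log2 fold change was 3.02, and without aged-SP replicate 4 it was 4.73. Cldn2 lies on chromosome X (139800828 to 139811386, plus strand).

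Cldn10, which forms pores for cations or anions depending on its isoform, was higher in the aged-SP libraries at 145 and 94.4 CPM. In the young-SP libraries it had 69.9, 28.3 and 33.0 CPM. The groups did not overlap, and young-SP replicate 1 was again the nearest of its group to the aged-SP libraries. The means were 119.9 ± 36.1 CPM (SD, n = 2) and 43.7 ± 22.8 CPM (SD, n = 3), so that the aged-SP group was 2.74-fold higher. The log2 fold change was 1.46 with a standard error of 0.43. It was 1.96 without young-SP replicate 1 and 1.11 without aged-SP replicate 1. The gene spans chromosome 14 from 118787908 to 118875489, and its counts per gene do not separate transcripts from the 2 start sites shown above, so the isoform cannot be read from them.

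Cldn8, a claudin of the renal collecting duct that acts there together with claudin-4, differed by less but with little spread. It had 25.9 and 24.0 CPM in the aged-SP libraries and 14.3, 15.0 and 13.7 CPM in the young-SP libraries. Each aged-SP library was at least 1.60 times each young-SP library, and young-SP replicate 1 lay among the other young-SP libraries. The log2 fold change was 0.80 with a standard error of 0.12, and it lay between 0.74 and 0.86 with each library left out. This is under the log2 fold change of 1 that the rule asks, and DESeq2's adjusted p was 0.000223, with a range over the alternatives of 0.000223 to 0.973.

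Cldn5 and Cldn11 are known mainly from cells other than the uterine epithelium. Cldn5, the claudin of blood vessel endothelium, had 56.2 and 54.7 CPM in the aged-SP libraries and 26.8, 57.4 and 28.5 CPM in the young-SP libraries. Young-SP replicate 2 was as high as the aged-SP libraries, so the groups overlapped, and the log2 fold change of 0.56 (standard error 0.35) was 1.002 without that library. The summed level of 7 endothelium markers was 116 in both aged-SP libraries and 86.5, 157 and 111 FPKM in the young-SP libraries, with young-SP replicate 2 the highest. Relative to Cdh5 (the cadherin of endothelial cells, and the most abundant of those markers on average over the 5 libraries), Cldn5 was at 1.22 and 1.27 in the aged-SP libraries and at 0.742, 0.841 and 0.598 in the young-SP libraries. These ratios did not overlap, but those to Pecam1, another marker of the list, came close to touching, with 1.16 in both aged-SP replicate 1 and young-SP replicate 2. Cldn11, known from myelin and from Sertoli cells, was near the lower end of what was fitted, counted 56 and 33 times in the aged-SP libraries against 19, 29 and 19 times in the young-SP libraries. The groups did not overlap, the log2 fold change was 0.98 with a standard error of 0.34, and without aged-SP replicate 1 it was 0.60. The summed level of 6 Schwann cell markers overlapped between the groups (22.3 and 19.8 FPKM against 19.6 to 27.9 in young-SP), and their part in the level of Cldn11 was not tested.

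**Figure D2:**
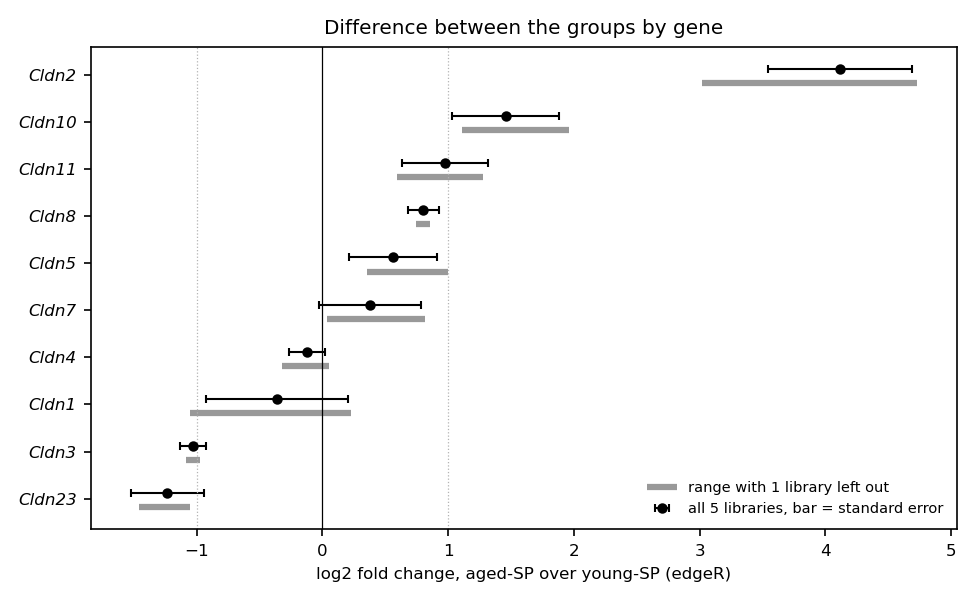
Log2 fold change, aged-SP over young-SP, for each claudin (horizontal axis, edgeR), with the standard error (black bars) and the range with 1 library left out (grey bars), and dotted lines at -1 and 1. Cldn2 at 4.12 lies farthest from 0, the short bars belong to Cldn3, Cldn4 and Cldn8, and only the ranges of Cldn1 and Cldn4 cross 0.

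The summed level of the 10 claudins was similar in the groups, at 281 and 242 FPKM in the aged-SP libraries and 303, 286 and 278 FPKM in the young-SP libraries. The make-up of that sum differed. Cldn3 made up 25.6% and 31.5% of it in the aged-SP libraries and 46.4%, 53.3% and 58.9% in the young-SP libraries, while Cldn10 made up 19.8% and 15.0% against 8.83%, 3.90% and 4.55%. Cldn2 held 4.85% and 1.74% in the aged-SP libraries and at most 0.234% in a young-SP library. The share of Cldn4 stayed between 5.96% and 6.58% in all 5 libraries. For both Cldn3 and Cldn10, young-SP replicate 1 lay between the aged-SP libraries and the other young-SP libraries.

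**Figure D3:**
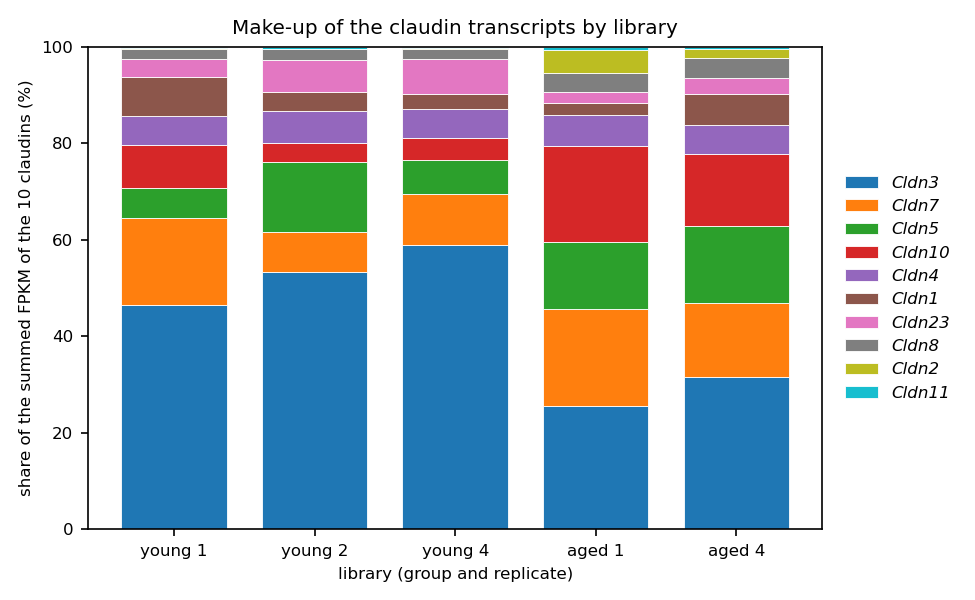
Share of each claudin in the summed FPKM of the 10 (vertical axis, percent) for the 3 young-SP and the 2 aged-SP libraries. The blue band of Cldn3 shrinks from at least 46.4% in the young-SP libraries to at most 31.5% in the aged-SP libraries, and the red band of Cldn10 is widest in the aged-SP libraries.

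Grouped by role, the claudins known as pores (Cldn2, Cldn10 and Cldn15) summed to 74.8 and 48.7 FPKM in the aged-SP libraries and to 34.4, 20.1 and 23.3 FPKM in the young-SP libraries. Those known mainly to seal (Cldn1, Cldn3, Cldn5 and Cldn11) summed to 119.9 and 131 FPKM in the aged-SP libraries and to 184, 206 and 193 FPKM in the young-SP libraries. In both sums the groups did not overlap, and most of each sum comes from Cldn10 or Cldn3. The genes of a role did not move together. Of the sealing genes Cldn1 and Cldn3 were lower in fold change and Cldn5 and Cldn11 higher. Of the pore genes Cldn2 and Cldn10 were higher and Cldn15 lower. The role groups hold 2 more pore genes and 1 more sealing gene, Cldn16, Cldn17 and Cldn19, which had 3 or fewer counts in every library. The ratio of Cldn10 to Cldn3 was 0.772 and 0.477 in the aged-SP libraries and 0.190, 0.0732 and 0.0772 in the young-SP libraries.

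These ratios were set beside the epithelial content of the samples. A list of 10 epithelial genes, led by the keratin Krt8, summed to 634 and 676 FPKM in the aged-SP libraries and to 814, 389 and 464 FPKM in the young-SP libraries. This sum overlapped and was highest in young-SP replicate 1. By gene, 8 were higher and 2 lower in fold change (median 0.42), and edgeR and DESeq2 called 0. At an unadjusted p under 0.05 in edgeR there was 1 higher gene, where 9.62% of all tested genes were. Krt18, the member of that list whose groups did not overlap, was higher in the aged-SP group (log2 fold change 0.38), which by itself lowers ratios to it there. Relative to Krt18, Cldn3 was at 0.446 and 0.494 in the aged-SP libraries and at 1.04, 1.33 and 1.40 in the young-SP libraries. Cldn10 was at 0.344 and 0.236 of Krt18 in the aged-SP libraries and at 0.198, 0.0975 and 0.108 in the young-SP libraries. Relative to Cdh1, a member whose groups overlapped, Cldn3 was at 1.45 and 1.66 in the aged-SP libraries and at 2.61, 4.85 and 4.05 in the young-SP libraries. Cldn10 was at 1.12 and 0.792 of Cdh1 against 0.495, 0.355 and 0.312. With the libraries scaled to 5 epithelial genes in place of the usual normalization, the median of all tested genes moved by -0.25 in log2 fold change, and none of the 10 claudins changed direction. Scaled this way, edgeR called 524 genes in place of 25. The log2 fold change was 3.997 for Cldn2, which was then called (adjusted p = 1.25e-11 in edgeR, with a range of 5.96e-23 to 0.240 over the alternatives). It was -1.29 for Cldn3 and 1.37 for Cldn10, which were not called (adjusted p = 0.183 and 0.0740 in edgeR). A list of 7 gland genes, led by the protease Prss29, summed to 3632 and 2485 FPKM in the aged-SP libraries and to 436, 47.3 and 38.5 FPKM in the young-SP libraries. That sum was made up mostly of the proteases Prss29 and Prss28 and did not overlap between the groups. Its genes did not move together, since 4 were higher and 3 lower. DESeq2 called 2 of them, Cxcl15 and Ttr, which were lower in both aged-SP libraries, where it called 1.92% of all genes as lower. For Prss28 and Prss29 DESeq2 gave no adjusted p. Their log2 fold changes were 5.18 and 4.11 (adjusted p = 0.283 and 0.312 in edgeR). A list of 9 genes of the progesterone response was led by Hoxa10 and held the progesterone receptor gene Pgr as well. In it 9 of 9 genes were lower in fold change (median -1.20). The list summed to 196 and 204 FPKM in the aged-SP libraries against 244, 266 and 268 in the young-SP libraries. Of those 9 genes edgeR called 0, 6 were lower at an unadjusted p under 0.05 (9.36% of all tested genes), and DESeq2 called 5 as lower (1.92% of all genes). The estrogen list had 7 of 8 genes higher (median 1.36), and its sum in young-SP replicate 1 was at the level of the aged-SP libraries as given above. C3, Esr1 and Greb1 were higher without overlap (19.5% of all tested genes), at an unadjusted p under 0.05 in edgeR (9.62%). EdgeR called 0 of the 8. DESeq2 called Greb1 as higher (1.69% of all genes) and gave no adjusted p for Lcn2 and Clca3b. Greb1 had 40.9 and 60.2 CPM in the aged-SP libraries and 17.5, 14.8 and 10.6 CPM in the young-SP libraries. The part of these lists in the claudin levels was not tested.

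**Figure D4:**
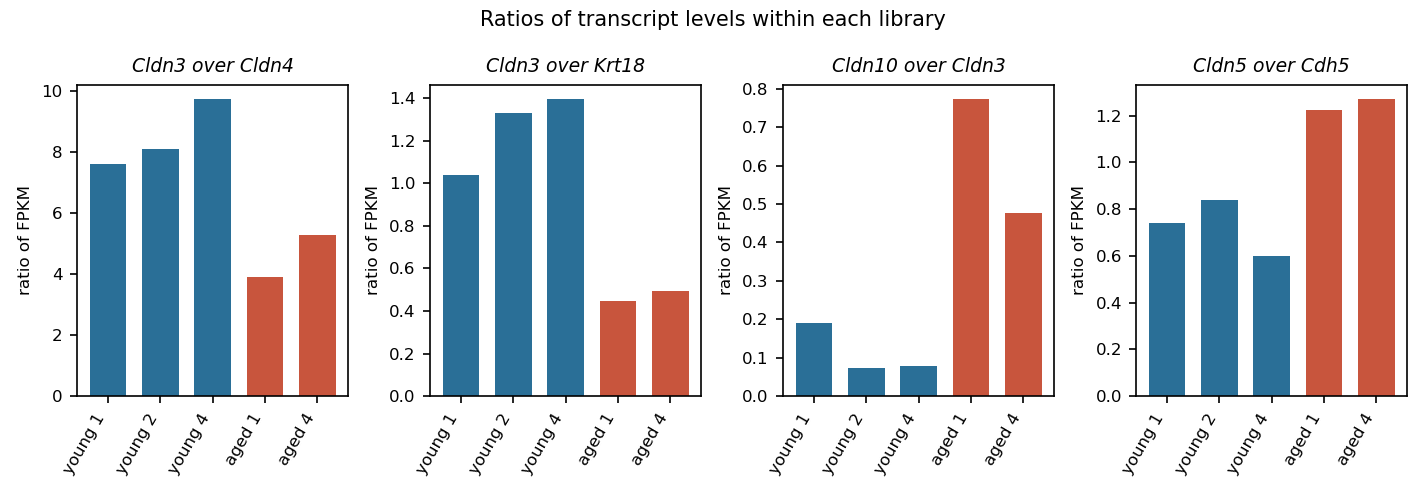
Ratios of FPKM within each library (vertical axes from 0) for Cldn3 over Cldn4, Cldn3 over Krt18, Cldn10 over Cldn3 and Cldn5 over Cdh5, in young-SP (blue) and aged-SP (red) libraries. The ratios to Cldn4 and Krt18 are lower in both aged-SP libraries, and those of Cldn10 to Cldn3 and of Cldn5 to Cdh5 are higher.

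Of the 12 other claudin genes in the table, 4 had enough counts to be tested. Cldn12, an atypical claudin, and the pore claudin Cldn15 were at 7.93 and 7.92 FPKM on average, close to Cldn8, and their groups overlapped (log2 fold changes 0.17 and -0.30, adjusted p = 0.540 and 0.530 in edgeR). Cldn34c1 also overlapped (log2 fold change 0.33, adjusted p = 0.557 in edgeR), and 13.8% of its 50-base stretches occur in other genes, against 0% for each of the 10 claudins described above. Cldn9 was counted 1 and 2 times in the aged-SP libraries against 3, 25 and 11 times in the young-SP libraries, and the groups did not overlap. Its fitted log2 fold change of -3.00 (standard error 1.11) did not pass (adjusted p = 0.237 in edgeR), and it depends on the prior count since both aged-SP libraries had 3 or fewer counts. The other 8 genes had at most 13 counts in any library.

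The other proteins of the tight junction were compared through a list of 31 genes, from occludin and the junctional adhesion molecules to the ZO scaffolds and the polarity proteins. All 31 were tested, 21 lay above 0 and 10 below in fold change, and edgeR called 0. At an unadjusted p under 0.05 there were 2 higher and 2 lower genes, 4 of 31, where 19.0% of all tested genes passed. The median log2 fold change was 0.15, beside 0.01 for all tested genes. Jam2, a junctional adhesion molecule known from endothelium, had the highest mean level of the list over the 5 libraries. It had 19.2 and 17.6 FPKM in the aged-SP libraries and 24.5, 57.6 and 67.6 FPKM in the young-SP libraries. Its groups did not overlap, its log2 fold change was -1.42 (standard error 0.43, adjusted p = 0.180 in edgeR), and it was the 1 gene of the list that DESeq2 called. F11r (junctional adhesion molecule A) and Tjp1 (the scaffold ZO-1) came next in level, with log2 fold changes of 0.20 and 0.21 that did not pass (adjusted p = 0.524 and 0.450 in edgeR). Beside Jam2, the smallest p values belonged to Ildr1 and Lsr, a pair of angulins, proteins of the corners where 3 cells meet. The log2 fold change was -0.76 for Ildr1 (standard error 0.23) and 0.98 for Lsr (standard error 0.37), and neither passed the test (adjusted p = 0.180 and 0.241 in edgeR).

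A list of 17 partners and regulators of claudins held membrane partners such as Epcam, the membrane proteases and their inhibitors, and transcription factors of epithelial junctions. By edgeR 0 were called, 11 lay above 0 and 6 below, and 2 higher and 1 lower had an unadjusted p under 0.05, which is 3 of 17 where 19.0% of all tested genes passed. The median log2 fold change was 0.55, beside 0.01 for all tested genes. Epcam, which binds claudin-7, had 127 and 115 FPKM in the aged-SP libraries, 137 FPKM in young-SP replicate 1, and 38.4 and 42.4 FPKM in young-SP replicates 2 and 4. For Epcam, young-SP replicate 1 lay with the aged-SP libraries, and the groups overlapped. Spint2, an inhibitor of the membrane proteases that cleave Epcam, had 145 and 60.3 FPKM in the aged-SP libraries and 48.5, 24.9 and 27.98 FPKM in the young-SP libraries. Its log2 fold change was 1.62 (standard error 0.46, adjusted p = 0.163 in edgeR), and it was the 1 gene of the list that DESeq2 called. Without young-SP replicate 1, edgeR called 3 genes of this list, and without any other library it called 0. Grhl1, a grainyhead factor of epithelia, had a log2 fold change of 1.06 and Snai2, the repressor Slug, of -0.47 (standard errors 0.35 and 0.16, adjusted p = 0.201 and 0.208 in edgeR).

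**Figure D5:**
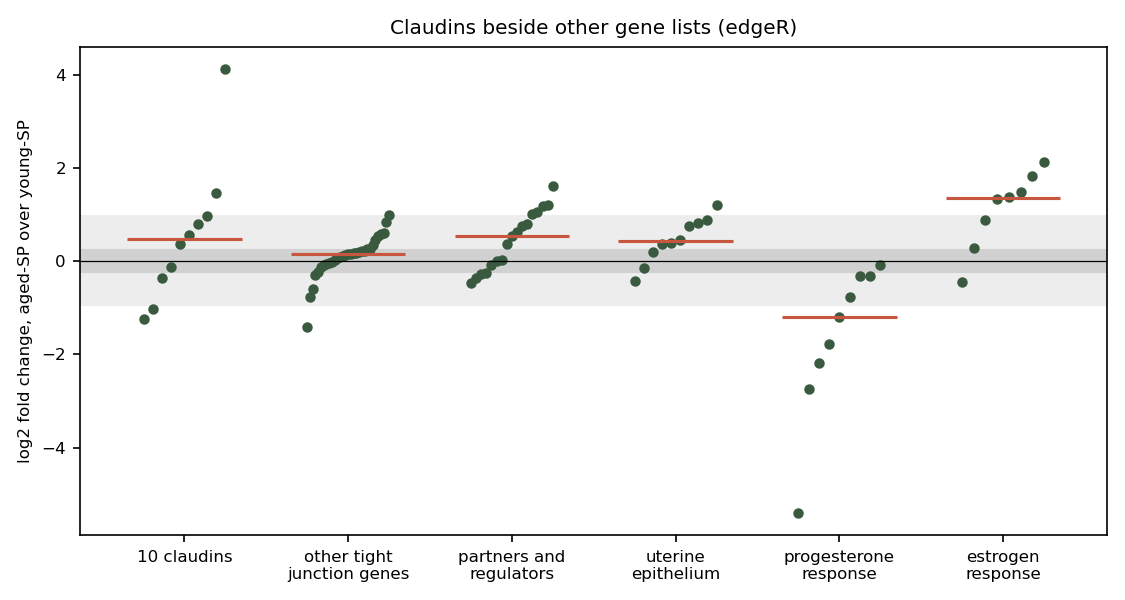
Log2 fold change, aged-SP over young-SP (vertical axis, edgeR), for each gene (points) of 6 lists, with the median of each list (red line). The dark and light grey bands hold the middle 50% and 90% of all tested genes, and the claudins spread from -1.24 to 4.12 while the medians of the progesterone and estrogen response lists lie at -1.20 and 1.36.

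Genes with the most similar pattern to Cldn3 over the 5 libraries were Rcn3, Abat, Crtap, Tmem45a and Tram1l1, whose centred log2 CPM differed from that of Cldn3 by a root mean square of 0.05 to 0.07. For Cldn2 they were 5330417C22Rik, Gm7298, Atg9b, Kcnc2 and Slc26a1, at 0.19 to 0.52. With 5 libraries and 17013 genes such likeness is a description only. Among the claudins, Cldn8 and Cldn11 were the closest pair, at 0.22.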

How the data were processed

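RNA of whole uteri was sequenced, and 5 libraries were grouped by their titles. A young-SP sample that the study set aside as an outlier was not analysed here. The labels do not say whether libraries share an animal, so p-values measure the spread between these libraries. Raw counts per gene were deposited by the authors, whose processing notes name HISAT2 2.1.0, Bowtie2 2.2.3 and HTSeq 0.6.0, and the genome build is not given in the sources used here. The deposited FPKM equal the count over gene length and library total, as checked on the values, and were used for levels and ratios. The columns of the authors' own DESeq2 comparison (mean, fold change and p-values) were not used.

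Genes were kept by filterByExpr in edgeR 4.0.16 (R 4.3.3), scaled by TMM, which gave factors between 0.990 and 1.02, and compared with glmQLFit and glmQLFTest, two-sided, with Benjamini-Hochberg adjustment over 17013 genes. Called genes had an adjusted p below 0.05 and differed by more than 1 on the log2 scale. CPM are counts relative to the scaled library size, log2 CPM have a prior count of 2, and standard errors are the fold change over the root of F. The biological coefficient of variation was 25.1%.

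The 10 claudins and all gene lists were chosen with earlier results of these data known. Named are the 10 claudins, every other tested claudin, the called genes or the 3 smallest p and 3 highest FPKM of the 2 junction lists, the most abundant gene and sum of marker lists, and the 5 genes most alike to Cldn3 and Cldn2 with at least 50 counts on average. Krt18, Cdh1, Pecam1, Prss28, Cxcl15, Ttr, Pdgfra, Hoxa11, Hand2, Upk1b, Itgax, Pax8, Pgr, Esr1, C3, Greb1, Lcn2, Clca3b, Cldn16, Cldn17 and Cldn19 were named after their values were seen. A gene that this rule names is not reported here. Positions are those of the deposited table, of which 26999 of 28666 are those of GENCODE M21 on GRCm38. Promoters are from RefSeq and were found for 8 of the 10 claudins. Alternatives were DESeq2 1.42.0, limma-voom (limma 3.58.1), other scalings and filters, a replicate block and each library left out. The tests were run on simulated data, where the check asked only for the right direction and size of the fold changes. It set no limit on false calls, and no simulated library stood apart from its group. Marker lists for stroma, myometrium, mesothelium, vagina and cervix, oviduct and leukocytes were also summed. Figures were drawn with matplotlib 3.10.9 in Python 3.11.15.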

Additional observations from a re-analysis of the deposited data

How the results depend on the processing

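Over 18 alternatives for each of the 10 claudins, 148 values kept direction and side of the threshold, 26 newly passed it and 6 reversed. The reversals were Cldn1 without aged-SP replicate 1 (0.10, or 0.090 with DESeq2) and without young-SP replicate 1 (0.23 with both tools), and Cldn4 without aged-SP replicate 4 (0.051 with both tools). Over the edgeR fits that leave out 1 library, Cldn1 lay between -1.05 and 0.23 and Cldn4 between -0.32 and 0.051. The cause was not tested. The number of called claudins was 0 with edgeR, 2 without a filter on low counts, 4 with DESeq2 and 1 with limma-voom (Cldn3). It was between 0 and 4 with 1 library left out in edgeR (1 without aged-SP replicate 4, 4 without young-SP replicate 1), and between 1 and 4 in DESeq2, an alternative added after seeing the data. Over the whole table edgeR called 25 genes, 203 without a filter and 632 with DESeq2, and between 1 and 578 with 1 library left out (1 without aged-SP replicate 1, 49 without aged-SP replicate 4, 578 without replicate 1, 3 without replicate 2 and 2 without replicate 4 of the young-SP group). DESeq2 then called 324 and 548 without aged-SP replicates 1 and 4, and 1002, 393 and 419 without replicates 1, 2 and 4 of the young-SP group. Of the other tight junction genes DESeq2 called 1, and leaving out 1 library gave 0 to 1 with edgeR and 0 to 3 with DESeq2. Of the partners and regulators DESeq2 called 1, and leaving out 1 library gave 0 to 3 with edgeR and 0 to 6 with DESeq2. DESeq2 size factors or library size alone, a minimum of 10 counts and the adjusted p alone gave between 18 and 26 called genes and 0 claudins, while scaling to 5 epithelial genes gave 524 called genes and Cldn2 among them. With the replicate block, which pairs replicates 1 and 4 of the groups, edgeR called 2 genes and 0 claudins. The deviations of same-numbered libraries correlated at 0.152 and 0.136, over 2 pairs, which is too few to show whether the numbers pair the libraries, and no label says that they do. Where an aged-SP library was left out, the lone aged-SP library is assumed to vary like the young-SP libraries.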

Other observations

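Markers of the other cell types of the uterus and of its neighbours were summed as well. The stroma list, led by decorin (Dcn), summed to 897 and 1137 FPKM in the aged-SP libraries and to between 939 and 1362 in the young-SP libraries. The myometrium list, led by the smooth muscle actin Acta2, summed to 2805 and 3617 against 3291 to 4831 FPKM, and the mesothelium list, led by Upk3b, to 23.7 and 26.3 against 20.9 to 48.9 FPKM. The leukocyte list, led by Cd68, summed to 65.9 and 82.1 against 45.0 to 105 FPKM, and the oviduct list, led by Ovgp1, to 24.1 and 38.8 against 13.3 to 68.9 FPKM. These 5 sums overlapped between the groups, but single genes did not all do so. In the stroma list 7 of 8 genes were lower in fold change, while edgeR and DESeq2 called 0. Of its genes 3 (Pdgfra, Hoxa11 and Hand2) were lower at an unadjusted p under 0.05 in edgeR, as 9.36% of all tested genes were. The same 3 were lower without overlap, as 19.3% of all tested genes were. Their log2 fold changes were -0.65, -0.28 and -0.28. In the mesothelium list DESeq2 called Upk1b as lower (log2 fold change -1.41, adjusted p = 0.0915 in edgeR). In the oviduct list it called Pax8 as higher (log2 fold change 1.12, adjusted p = 0.202 in edgeR). DESeq2 called 1.92% of all genes as lower and 1.69% as higher. Acta2 was lower and Itgax, of the leukocyte list, higher without overlap, and neither was called. The vagina and cervix list, led by Krt10, summed to at most 2.697 FPKM in the aged-SP libraries and to 3.28 to 7.92 in the young-SP libraries. Unlike the 5 sums above, this sum did not overlap between the groups and was lower in both aged-SP libraries. DESeq2 called Krt10 as lower, while edgeR called 0 genes of this list. Of its 8 genes 3 had enough counts to be tested, and Krt6a had 3 or fewer counts in every library. A difference in the tissue collected was not tested.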
